A study of Mus musculus with 8 samples.

Results

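Olfactory receptor genes lie in large tandem clusters, and 3 of these were examined for binding of Rad21 in a mouse B lymphoma line. The clusters were taken as fixed windows of the mm9 mouse genome, chr2:85000000-90000000, chr7:109600000-115500000 and chr9:37500000-40000000, and every deposited Rad21 peak overlapping a window by at least 1 bp was a member. The window chr7:110900000-111100000, which holds the beta-globin locus inside the chromosome 7 cluster, was kept apart. Of the 199072 peaks in the 8 lists, 339 lay in the 3 clusters, 34 on chromosome 2, 284 on chromosome 7 and 21 on chromosome 9, and a further 31 lay in the beta-globin window. After peaks that overlapped between libraries were merged, the members formed 97 of 64772 regions, and the beta-globin peaks formed 7 more.

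Rad21 is the kleisin subunit of cohesin, the ring-shaped complex that extrudes chromatin loops and is often held at sites bound by CTCF, so that its peaks mark many loop anchors. Olfactory receptors form the largest gene family in the mouse, and a mature olfactory neuron expresses 1 of them while the others stay silent. The clusters are not known to be used in B cells, where the beta-globin genes, which encode a chain of haemoglobin in red blood cell precursors, are silent too. In erythroid cells the beta-globin locus is controlled by a distant enhancer group, the locus control region, and is flanked by CTCF sites. The lists hold no expression values, so the silence of these genes in the profiled cells was not checked.

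The 8 libraries were from CH12F3, a murine lymphoma line of B cell origin used to study the switch from IgM to IgA. All lines carried the AID-/- genotype, which removes the deaminase that starts class switching, and all had received anti-CD40, IL4 and TGF-β for 3 days. Both FS_Ca and FS_Ia lines kept the Sγ3 and Sα switch regions at full length. FS_Ca carried a deletion from Cγ3 to Iα on a background with a deletion of the non-coding IgH allele that spans VH and the CTCF-binding elements at its 3' end, and FS_Ia carried a deletion from Cγ3 to Cα in αInv cells. PS_Ca and PS_Ia carried a deletion between Sγ3 and Sα that left part of each switch region, in the first and in the second of those backgrounds, respectively. There were 2 libraries for each of the 4 genotypes. The labels do not say whether these came from separate cultures or clones, so the p-values measure only the spread between these libraries, which may be technical.

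List length varied from 11288 peaks in PS_Ca replicate 2 to 47461 in PS_Ia replicate 2. Peaks were called in each library on its own, and the weakest summit of a list held 3 to 5 fragments, so counting error alone is large for the weakest members. For that reason clusters and the remaining chromosome were compared within each list. The lowest numbers of cluster peaks were 18 in PS_Ca replicate 2, 28 in FS_Ia replicate 1 and 32 in FS_Ia replicate 2. FS_Ca replicate 1 held 37, PS_Ia replicate 1 held 47 and FS_Ca replicate 2 held 50, and the highest numbers were 62 in PS_Ia replicate 2 and 65 in PS_Ca replicate 1.

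The gene neighbourhoods of the longest receptor runs on these chromosomes were read from the RefSeq gene order of the GRCm38.p6 assembly, which was used for names and neighbours alone. Which of these genes lie inside the mm9 windows was not determined. On chromosome 2 the longest run held 293 receptor genes and pseudogenes, from Olfr987 to Olfr1274, of which 222 were coding, with 3 other coding genes among them (Fads2b, Pramel7 and Pramel6). On chromosome 9 the longest run held 127, from Olfr160 to Olfr986, of which 95 were coding, with Vwa5a, AW551984 and Tmem225 among them. The receptor genes of chromosome 7 around the globin genes fell into 4 runs of 116, 42, 28 and 52 members, a total of 238, and 55 other coding genes lay between the first and the last. A run was allowed at most 5 other coding genes between neighbouring receptor genes. After the first of these runs stood 11 coding genes, most of them Trim genes, which encode ubiquitin ligases of the tripartite motif family. After the next run stood 21, among them Ilk, an integrin-associated kinase, Taf10, a subunit of the general transcription factor TFIID, Smpd1, the acid sphingomyelinase, Tpp1, a lysosomal peptidase, and Dchs1, a large cadherin. Before the last run stood 6, including Syt9 and Ppfibp2. Where these genes start and end in mm9 was not determined here, so no peak was assigned to a gene.

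Rad21 peaks were sparser in all 3 clusters than in the rest of their chromosomes, and sparsest on chromosomes 2 and 9. In the chromosome 2 cluster a library held 0.85 ± 0.298 peaks per Mb (SD, n = 8), against 10.0 ± 4.80 over the rest of the chromosome. The chromosome 9 cluster held 1.05 ± 0.424 peaks per Mb against 11.3 ± 5.22, and the chromosome 7 cluster 6.23 ± 2.61 against 10.0 ± 4.74 (SD, n = 8 each). Together the clusters made up 2.94% of the length of these chromosomes and 0.927% of their peaks.

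The chromosome 2 cluster held 2 peaks in FS_Ia replicate 2, 3 in FS_Ia replicate 1 and in PS_Ca replicate 2, 4 in PS_Ia replicate 2, 5 in each FS_Ca library, and 6 in PS_Ca replicate 1 and in PS_Ia replicate 1. The rest of the chromosome held 731 to 3301 peaks per list. Its density was 6.90 to 27.0 times that of the cluster. In the log2 density ratio, computed on peaks + 0.5, the cluster was lower by a mean of -3.32 ± 0.747 (SD, n = 8) and lower in 8 of 8 libraries, with an exact two-sided sign-flip permutation p of 0.0078125, the smallest that 8 libraries can give, and an adjusted p of 0.0208 over 16 tests. With 500000 bp trimmed from each end of the windows, which removes the most populated stretch of the chromosome 2 cluster, the mean ratio was -4.10. It was -2.79 when the rest was limited to 10000000 bp on each side, a stretch that was sparser than the whole chromosome in 8 of 8 libraries.

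The chromosome 9 cluster held 1 peak in PS_Ca replicate 2, 2 in FS_Ca replicate 1, in FS_Ia replicate 1 and in PS_Ia replicate 1, 3 in FS_Ca replicate 2 and in PS_Ia replicate 2, and 4 in FS_Ia replicate 2 and in PS_Ca replicate 1. The rest of the chromosome was 7.42 to 17.5 times denser. The mean log2 ratio was -3.12 ± 0.393 (SD, n = 8), again below 0 in 8 of 8 libraries with the same exact permutation p and adjusted p. It was -3.95 in the trimmed windows.

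The chromosome 7 cluster differed less from its surroundings. It held 14 peaks in PS_Ca replicate 2, 23 and 26 in FS_Ia replicates 1 and 2, 30 and 42 in FS_Ca replicates 1 and 2, 39 in PS_Ia replicate 1, and 55 in PS_Ca replicate 1 and in PS_Ia replicate 2. The rest of the chromosome was 1.12 to 2.56 times denser, and the closest pair of values was in PS_Ia replicate 1, with 6.84 and 7.64 peaks per Mb. The mean log2 ratio of -0.65 ± 0.382 (SD, n = 8) was below 0 in 8 of 8 libraries, with the same exact permutation p of 0.0078125 and adjusted p of 0.0208. In each library the log2 ratio of the chromosome 7 cluster was above that of the chromosome 2 cluster, by 1.80 to 3.45, and above that of the chromosome 9 cluster, by 1.40 to 3.15. The ratio was -1.05 when the rest was limited to 10000000 bp on each side, a stretch that was denser than the whole chromosome in 8 of 8 libraries. The log2 ratio of all clusters together was -1.64 ± 0.347 (SD, n = 8), below 0 in 8 of 8 libraries, with the same p-values. The 8 lists come from derivatives of the same cell line and describe the same windows. The 8 values in these and the later within-library tests are therefore not independent of each other, and the p-values can be too small. These p-values also do not compare a cluster with other stretches of its chromosome. The median of 24 other 5.9 Mb windows on chromosome 7 was 7.73 peaks per Mb and library, also below the 10.0 of the rest of the chromosome.

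**Figure D1:**
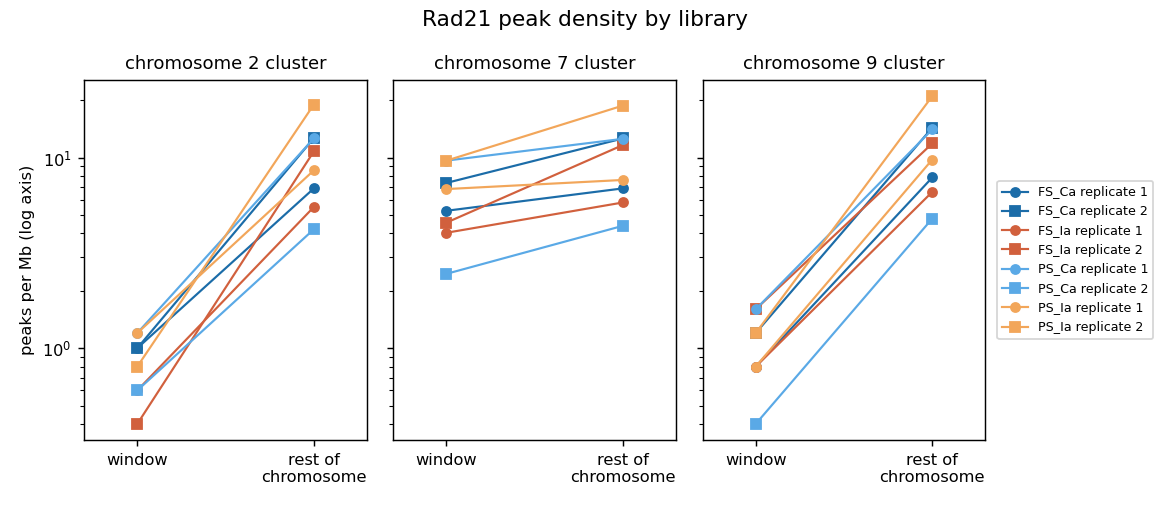
Rad21 peaks per Mb (log axis) in each olfactory receptor window and in the rest of the same chromosome, 1 line per library; colours mark the genotype, circles replicate 1 and squares replicate 2. All 24 lines rise from the window to the rest, steeply on chromosomes 2 and 9 (window values of 0.4 to 1.6) and shallowly on chromosome 7 (2.46 to 9.65).

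Equal windows of the same chromosome gave the same order of the clusters, as a description with no test. Of 34 other adjacent 5 Mb windows of chromosome 2, 0 had fewer peaks or fewer regions than the receptor cluster. The cluster's 7 regions stood against 10 to 372 elsewhere, with a median of 89. The sparsest other window, 95 to 100 Mb, had 1.05 peaks per Mb and library against 0.85 in the cluster. On chromosome 9, 2 of 46 other 2.5 Mb windows had fewer regions than the cluster's 7, and the median was 64.5. On chromosome 7, 10 of 24 other 5.9 Mb windows had fewer regions than the cluster's 83, and the median was 115.5, so that this cluster was unexceptional among windows of its chromosome.

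**Figure D2:**
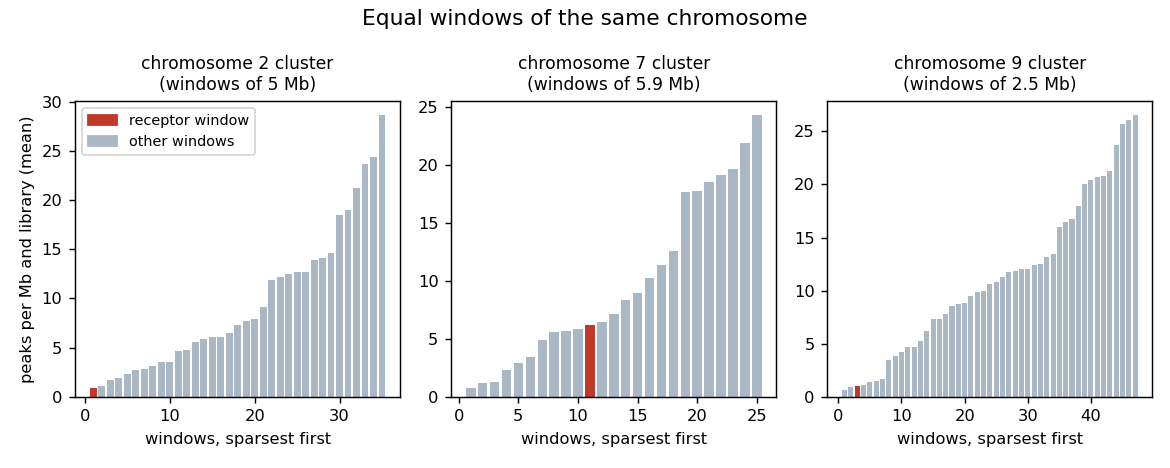
Mean Rad21 peaks per Mb and library in equal adjacent windows of chromosomes 2, 7 and 9, ordered from sparsest to densest, with the receptor window in red. The chromosome 2 window is the sparsest of its chromosome at 0.85, the chromosome 9 window has 2 sparser ones, and the chromosome 7 window has 10 sparser ones.

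The peaks of each cluster were not evenly spread. In 100 kb bins, 44 of 50 bins (88%) of the chromosome 2 cluster had no peak in any library, against 41.5% of bins in the rest of the chromosome. On chromosome 9, 19 of 25 bins (76%) were empty, against 38.3%. On chromosome 7, 24 of 57 bins (42.1%) were empty, against 47.8% elsewhere on the chromosome.

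Long stretches without a peak in any of the 8 libraries made up most of the chromosome 2 and 9 clusters. On chromosome 2 these were chr2:86305391-88196202 (1891 kb) and chr2:88197021-90034527 (1838 kb), parted by a single region, and they ranked 3rd and 5th of 4463 such stretches on the chromosome. On chromosome 9, chr9:37806663-39316624 (1510 kb) ranked 5th of 3345. The median stretch between neighbouring regions of the genome was 4.35 kb and the 99th percentile was 559 kb. On chromosome 7 the longest stretch wholly inside the cluster was chr7:110268552-110859763 (591 kb), just before the beta-globin window, and it ranked 27th of 3758. A longer one of 1026 kb began at chr7:114932612 and ran past the end of the window. Regions held by all 8 libraries were absent over longer distances. The stretch chr2:85087750-90034527, 4947 kb long, was the longest on its chromosome without one, and chr9:37425978-40035169, 2609 kb long, covered the whole chromosome 9 cluster.

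Peaks resumed close to the windows, except after the chromosome 7 window, where the nearest region of any kind was 459 kb away. Regions held by all 8 libraries lay 35.0 kb before and 34.5 kb after the chromosome 2 window. They lay 74.0 kb before and 35.2 kb after the chromosome 9 window. On chromosome 7 the nearest was 32.7 kb before the window, whereas the nearest after it was 671 kb away.

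**Figure D3:**
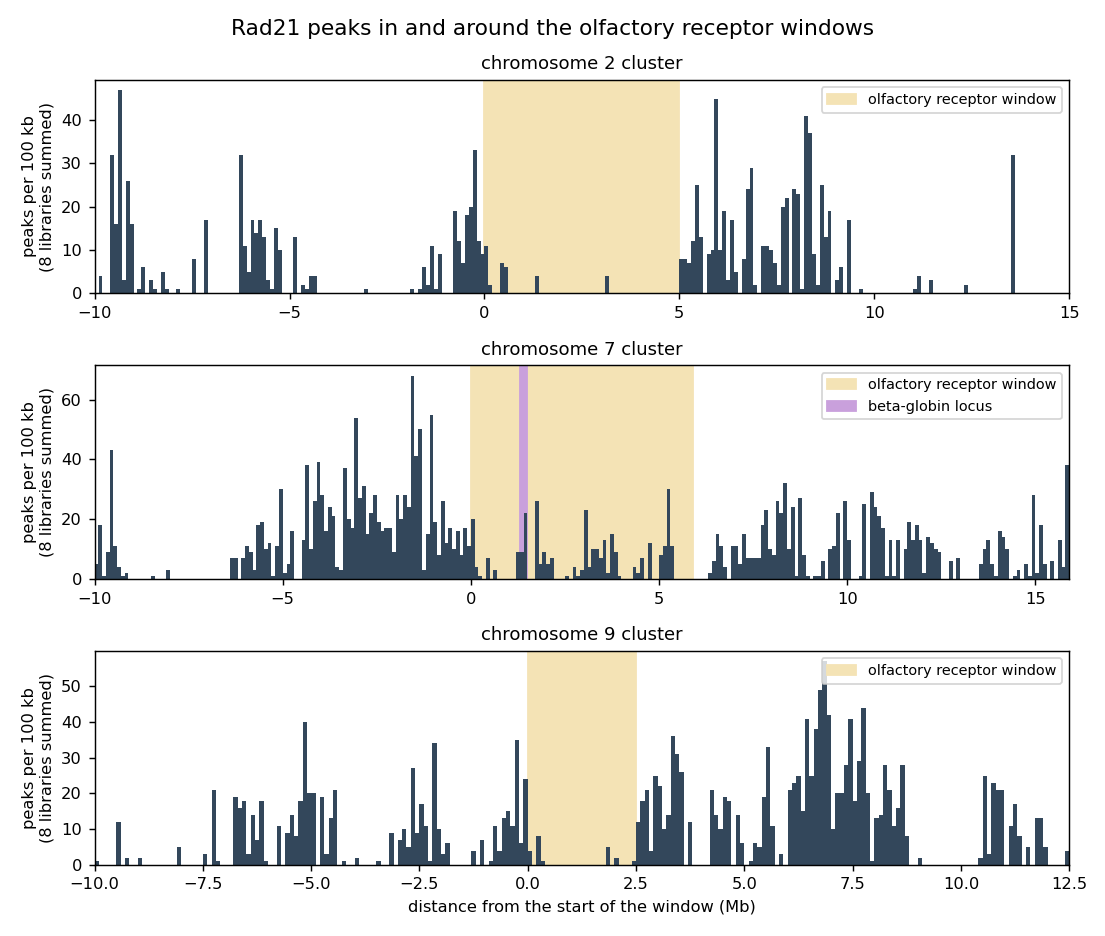
Rad21 peaks per 100 kb, summed over the 8 libraries, from 10 Mb before to 10 Mb after each window, against the distance from the window's start; tan marks the olfactory receptor window and purple the beta-globin locus. The chromosome 2 and 9 windows are nearly empty, with peaks again just outside both edges, while the chromosome 7 window holds several groups of peaks. The plotted flanks of chromosome 2 also hold long stretches with few or no peaks.

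Within the chromosome 7 cluster the peaks came in blocks. Counted in 500 kb steps from the start of the window and summed over libraries, 32 peaks lay in the first step and 3 in the second. A further 40 lay between 1500 and 2000 kb, 54 between 3000 and 3500 kb, 40 between 3500 and 4000 kb and 60 between 5000 and 5500 kb. The step from 5500 to 5900 kb, the last, held 0. The runs of other coding genes in the RefSeq order could not be set against these blocks, because that order carries no mm9 positions.

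The single chromosome 2 region with a peak in all 8 libraries, chr2:85085754-85087749, lay 85.8 kb from the start of the window. Its fold enrichment over the expected background at the summit, which is the authors' value and depends on the depth of its list, was 7.89 and 9.82 in FS_Ca replicates 1 and 2 and 6.19 and 17.2 in FS_Ia replicates 1 and 2. It was 13.5 and 8.19 in PS_Ca replicates 1 and 2 and 11.7 and 12.9 in PS_Ia replicates 1 and 2. Folds of different libraries are given side by side and were not tested against each other. Folds move in steps of whole fragments, so many peaks of a list tie. Each peak was given a percentile rank within its list, counted from the strongest, with tied peaks sharing their mean rank. This rank is therefore not the share of peaks above a region. The region ranked highest in PS_Ia replicate 2, at 6.11%, and lowest in FS_Ia replicate 1, at 63.8%. The strongest peak of each library there had a summit of 7 to 23 fragments.

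Deeper in the chromosome 2 cluster, chr2:85401299-85402043 had a peak in 7 libraries and none in FS_Ia replicate 2. Its folds were 9.33 and 8.67 in the FS_Ca libraries, 6.96 in FS_Ia replicate 1, 10.7 and 5.67 in the PS_Ca libraries and 11.1 and 6.44 in the PS_Ia libraries. The region chr2:85565678-85566459 had a peak in 6 libraries, with folds of 5.67 to 10.2. Beyond it only 2 regions were found up to the end of the window, each in 4 libraries. The first was chr2:86304587-86305390, with folds of 11.4 in FS_Ia replicate 2, 8.46 in PS_Ca replicate 1, 4.93 in PS_Ia replicate 1 and 6.44 in PS_Ia replicate 2. The second was chr2:88196203-88197020, with folds of 7.17 and 5.20 in the FS_Ca libraries, 7.90 in PS_Ca replicate 1 and 6.78 in PS_Ia replicate 1. It stood alone between the 1891 kb and 1838 kb stretches. The strongest chromosome 2 region held by 1 library was chr2:85088019-85088352, in PS_Ca replicate 1, with a fold of 4.51 and a summit of 7 fragments.

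No chromosome 9 region had a peak in all 8 libraries. The most shared, chr9:37740046-37741287, lacked a peak in PS_Ia replicate 2, the longest list. Its folds were 4.30 and 8.67 in FS_Ca replicates 1 and 2, 5.42 and 7.36 in FS_Ia replicates 1 and 2, 12.4 and 5.04 in PS_Ca replicates 1 and 2 and 14.8 in PS_Ia replicate 1. Within the lists it ranked high in PS_Ia replicate 1 and PS_Ca replicate 1, at percentile ranks of 7.06% and 12.6%. It ranked low in FS_Ca replicate 1, at 92.1%. The remaining 6 regions had folds of at most 7.36. The nearest to the middle of the cluster was chr9:39316625-39317153, which 5 libraries held with folds of 4.30 to 5.64 and which closed the 1510 kb stretch. The strongest region held by 1 library was chr9:37737592-37738049, in FS_Ia replicate 2, with a fold of 7.36 and a summit of 8 fragments. Another, chr9:39999860-40000478, straddled the window's end, and its FS_Ia replicate 2 peak began outside and was not counted as a member.

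The chromosome 7 cluster held 10 regions with a peak in all 8 libraries. The best ranked within the lists was chr7:109660491-109662389, near the start of the window. Its folds were 8.61 and 8.67 in FS_Ca replicates 1 and 2, 9.28 and 19.6 in FS_Ia replicates 1 and 2, 14.5 in PS_Ca replicate 2, 9.59 in PS_Ca replicate 1, and 9.86 and 14.0 in PS_Ia replicates 1 and 2. Its percentile rank was 2.97% in PS_Ca replicate 2 and 28.7% in FS_Ca replicate 1, the extremes. A neighbour, chr7:109654754-109656748, had folds of 5.67 to 16.4 and percentile ranks of 7.12% to 71.4%.

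The second-ranked, chr7:111347970-111349573, lay 248 kb after the beta-globin window. Its folds were 11.5 and 12.1 in FS_Ca replicates 1 and 2, 10.1 and 13.9 in FS_Ia replicates 1 and 2, 13.0 and 6.93 in PS_Ca replicates 1 and 2 and 12.3 and 15.0 in PS_Ia replicates 1 and 2. It ranked highest in PS_Ia replicate 2, at a percentile rank of 3.61%, and lowest in PS_Ca replicate 2, the shortest list, at 46.2%. Its summit of 27 fragments in PS_Ia replicate 2 was the tallest of all cluster peaks together with chr7:113456601-113457056, which held 27 in the same library and which 3 libraries shared. The tallest summit had 52 fragments elsewhere on chromosome 7, 526 elsewhere on chromosome 2 and 468 elsewhere on chromosome 9. These are single extremes, and heights depend on the depth of a list. The median summit over all lists was 9 fragments in the clusters and 9 in the rest of the 3 chromosomes. The third, chr7:110859764-110861496, lay 38.5 kb before the beta-globin window and closed the 591 kb stretch. Its folds were between 7.17 and 14.1, and its percentile ranks between 8.93% and 42.0%. Further along, chr7:113100679-113101793 had folds between 5.67 and 13.9, and its 8 summits fell within 200 bp. Other regions of all 8 libraries were chr7:112663009-112664400, chr7:112874227-112875717, chr7:113356794-113358041 and chr7:114931391-114932611. Their folds lay between 5.02 and 13.9, taking the strongest peak of each library, and the weakest of the 10 regions was chr7:114358777-114359786 with folds of 4.09 to 8.63. The strongest regions of this cluster held by 1 library were chr7:114808061-114808322 and chr7:114893400-114893742, both in PS_Ia replicate 2 and tied at a fold of 5.91 and a summit of 10 fragments.

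The beta-globin window, 200 kb long, held 7 regions. The region chr7:110940756-110942038 had a peak in all 8 libraries, with folds of 12.2 and 11.0 in FS_Ca replicates 1 and 2, 8.51 and 8.99 in FS_Ia replicates 1 and 2, 13.5 and 6.93 in PS_Ca replicates 1 and 2 and 14.2 and 11.3 in PS_Ia replicates 1 and 2. Its percentile rank was 8.20% in PS_Ia replicate 1 and 46.2% in PS_Ca replicate 2, the extremes. Next, chr7:111021227-111023756 was held by 6 libraries with folds of 6.19 to 11.1, and lacked a peak in FS_Ia replicate 2 and PS_Ca replicate 2. The region chr7:111061107-111062016 was held by FS_Ca replicate 2 with a fold of 5.20 and by the 4 PS libraries with folds of 5.04 to 9.25. The last, chr7:111090842-111092441, was held by 7 libraries with folds of 5.72 to 11.3 and lacked a peak in PS_Ca replicate 2. The other 3 regions were each held by 1 library.

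**Figure D4:**
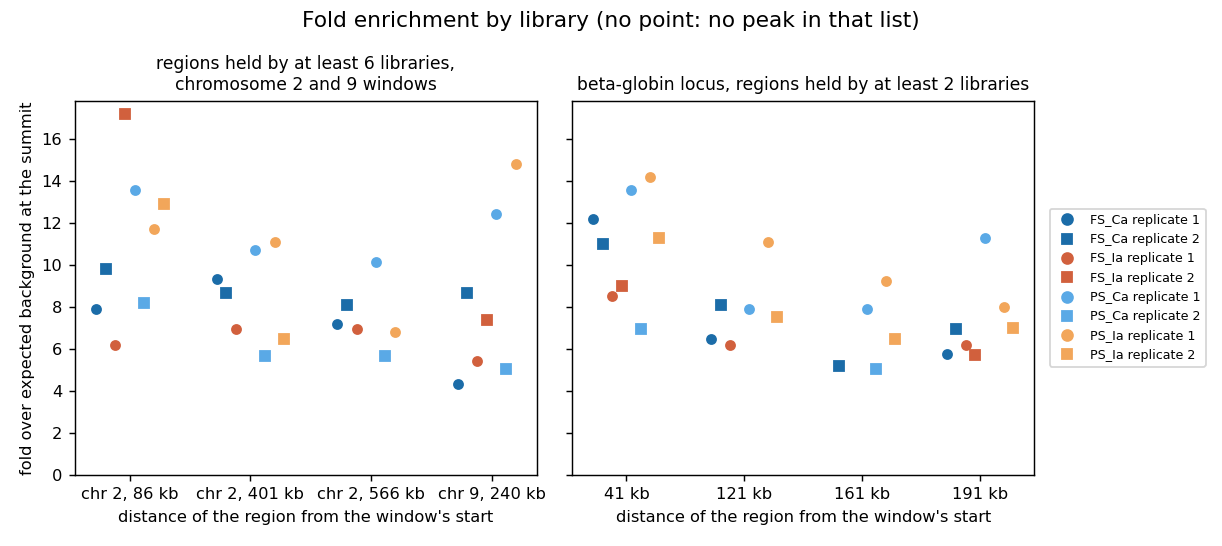
Fold enrichment at the summit (linear axis, the authors' value, the strongest peak of each library) in the chromosome 2 and 9 regions held by at least 6 libraries and in the beta-globin regions held by at least 2, by distance from the window's start; colours mark genotypes, circles replicate 1 and squares replicate 2. Folds lie between 4.30 and 17.2, and the libraries of a region are set side by side with no test between them.

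No difference in fold enrichment between cluster peaks and other peaks of the same chromosomes passed the test. The median fold of a library was 6.29 ± 0.563 in the clusters and 6.28 ± 0.605 in the rest (SD, n = 8 each). The mean log2 ratio of medians was 0.0051 (exact sign-flip permutation p = 1), with 2 libraries above 0, 2 below and the others equal. On chromosome 2 the mean log2 ratio was 0.33 ± 0.495, with an exact permutation p of 0.0938 and an adjusted p of 0.136 (n = 8). This rested on 2 to 6 peaks per library, and the ratio was 0.0082 with lists of equal length (adjusted exact permutation p = 0.945) and 0.046 with peaks of −log10 q of at least 5. On chromosome 7 it was -0.02 ± 0.202 (adjusted exact permutation p = 0.767, n = 8), and on chromosome 9 it was -0.16 ± 0.387 (adjusted exact permutation p = 0.346, n = 8). With every list cut to its 11288 strongest peaks, the ratio was -0.16 for all clusters with an adjusted exact permutation p of 0.05, at the threshold, and -0.18 on chromosome 7 with an adjusted exact permutation p of 0.0278.

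Cluster peaks were narrower. The median width of a library was 424 ± 94.1 bp in the clusters and 480 ± 86.1 bp in the rest (SD, n = 8 each). The log2 ratio was -0.19 ± 0.137, below 0 in 8 of 8 libraries, with an exact sign-flip permutation p of 0.0078125 and an adjusted p of 0.0208. Its call was lost with peaks of −log10 q of at least 5 alone (-0.29, adjusted exact permutation p = 0.0790) and with the beta-globin window counted in (-0.15, adjusted exact permutation p = 0.0556). On chromosome 9 the median width was 344.5 ± 143 bp against 482 ± 87.5 bp, a log2 ratio of -0.56 ± 0.429 that was below 0 in 7 of 8 libraries (adjusted exact permutation p = 0.0417). On chromosome 7 it was -0.18 ± 0.148, below 0 in 7 of 8 libraries (adjusted exact permutation p = 0.0313). Leaving out any single library other than FS_Ca replicate 2 raised the chromosome 9 adjusted p to between 0.0556 and 0.107, and leaving out any other than PS_Ia replicate 1 raised the chromosome 7 adjusted p to between 0.0556 and 0.0833. On chromosome 2 the ratio was -0.11 ± 0.346, below 0 in 5 of 8 libraries (adjusted exact permutation p = 0.429).

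Recurrence was read first by region. Of the 97 cluster regions, 11 (11.3%) had a peak in all 8 libraries, beside 11.3% of 11465 regions in the rest of the 3 chromosomes. Regions held by 1 library were 37 of 97 (38.1%), beside 52% in the rest, and regions held by at least 4 libraries were 40 of 97 (41.2%), beside 29.9%. By cluster, the regions of all 8 libraries were 1 of 7 on chromosome 2, 10 of 83 on chromosome 7 and 0 of 7 on chromosome 9. The share for all 8 libraries was therefore at the background share. The shares are a description, with no test. Of the 37 regions of 1 library, 15 came from PS_Ia replicate 2, the longest list, 8 from PS_Ca replicate 1 and 0 from PS_Ca replicate 2, the shortest.

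**Figure D5:**
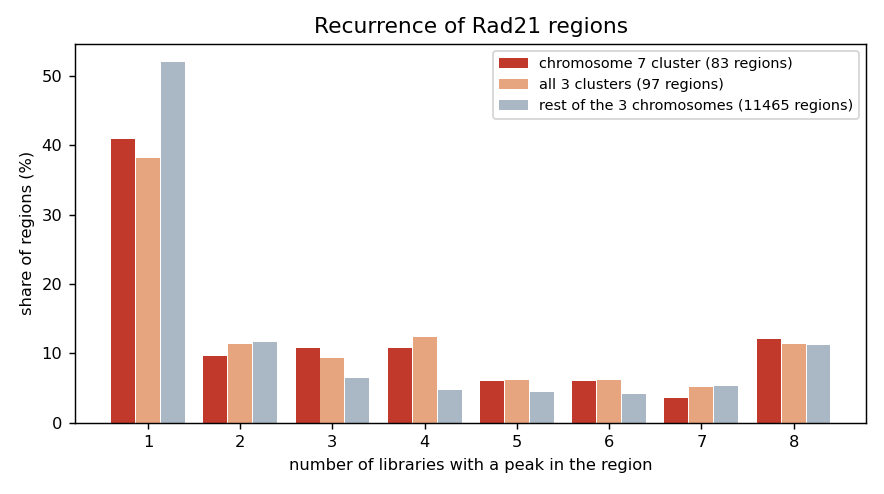
Share of Rad21 regions (%) by the number of libraries with a peak there, for the chromosome 7 cluster (83 regions), all 3 clusters (97) and the rest of chromosomes 2, 7 and 9 (11465). The bars at 8 libraries are nearly level, at 11.3% for the 3 clusters and for the rest, while the bar at 1 library is 38.1% for the clusters and 52% for the rest.

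By peak, the share of a library's peaks that lay in regions of all 8 libraries was 32.4% ± 13.8 in the clusters and 40.9% ± 16.6 in the rest (SD, n = 8 each). The difference was -8.47 ± 6.47 percentage points and below 0 in 7 of 8 libraries, with an adjusted exact permutation p of 0.0313. The exception was FS_Ia replicate 2, with 34.4% and 33.0%. By region the share was 11.3% in the clusters and in the rest, so the difference by peak does not mean that fewer cluster regions recurred. The regions of all 8 libraries are the same ones in every list, so the 8 differences are not independent of each other and this p can be too small. The call held without FS_Ia replicate 1, FS_Ia replicate 2 or PS_Ca replicate 2 (adjusted exact permutation p of 0.0357, 0.0313 and 0.0357). It was lost without any of the others: the adjusted p was 0.111 without FS_Ca replicate 1, 0.0833 without FS_Ca replicate 2 or PS_Ca replicate 1, 0.0556 without PS_Ia replicate 1 and 0.25 without PS_Ia replicate 2. With regions built from summits the difference was -2.40 points (adjusted exact permutation p = 0.420), and with lists of equal length it was -16.0 points (adjusted exact permutation p = 0.0208). On chromosome 9 the share was 0 in every library against 19.9% to 72.9% in the rest, a difference of -41.3 ± 16.9 points (SD, n = 8). Its sign in all 8 libraries follows from the single fact that no chromosome 9 region was held by all 8, so no p is given. Without PS_Ia replicate 2, the library that lacked the most shared chromosome 9 region, the difference was 4.14 points. On chromosome 7 it was -5.67 ± 7.48 points (adjusted exact permutation p = 0.125, n = 8), and without FS_Ia replicate 2 it was -8.30 points with an adjusted exact permutation p of 0.0313. On chromosome 2 it was -8.43 ± 18.6 points (adjusted exact permutation p = 0.292, n = 8), and 8.71 points without FS_Ia replicate 2.

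The 2 features of the engineered alleles were then compared, Ca against Ia (called orientation) and FS against PS (switch length). Ca and Ia lines also differed in their genetic background, as given above, so orientation and that background cannot be told apart here. Cluster peaks were counted per 10000 peaks of a list. The values were 21.5 and 15.8 in FS_Ca replicates 1 and 2, 20.2 and 12.2 in FS_Ia replicates 1 and 2, 21.0 and 15.9 in PS_Ca replicates 1 and 2 and 22.8 and 13.1 in PS_Ia replicates 1 and 2. Replicates of 1 genotype differed more than the genotype means, which ran from 16.2 in FS_Ia to 18.7 in FS_Ca. The 4 Ca libraries averaged 18.6 ± 3.09 and the 4 Ia libraries 17.1 ± 5.25 (SD), a difference of -1.48 with an exact permutation p of 0.6 and an adjusted p of 0.743 over 8 tests. The 4 FS libraries averaged 17.5 ± 4.24 and the 4 PS libraries 18.2 ± 4.50 (SD), a difference of 0.75 with an exact permutation p of 0.743 and the same adjusted p. Leaving out 1 library moved these differences between -3.39 and 0.14, and between -0.99 and 2.47. The sign turned without FS_Ia replicate 2 in both (0.14 and -0.99), and also without PS_Ca replicate 1 (-0.17) or PS_Ia replicate 1 (-0.79) in the second. By cluster, the lowest unadjusted exact permutation p was 0.171, for switch length on chromosome 9, where FS libraries had 1.27 ± 0.265 and PS libraries 0.945 ± 0.272 (SD, n = 4 each).

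The names of the peaks in the lists carry prefixes that sort the libraries into 3 sets, one with the 4 FS libraries, one with both PS libraries numbered 1 and one with both numbered 2. Within these sets the Ia minus Ca difference in cluster peaks per 10000 was -2.44, 1.86 and -2.88, respectively. In these libraries the set and the switch length cannot be told apart.

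No cluster or beta-globin region separated the libraries by either feature. Of the 104 regions, 0 had a peak in every library of one orientation and in none of the other, beside 0.0479% of all 64772 regions, and 0 did so by switch length, also beside 0.0479%. At so low a share, a count of 0 among 104 regions is no trait of these regions. Fisher's exact test, run on every region of the genome, cannot go below 0.0286 with 4 libraries against 4, so that after adjustment over all regions no region could pass it. The lowest unadjusted exact p was 0.143 for both features, and no region had one under 0.05. By orientation it belonged to chr7:114323966-114324592, held by 3 Ca libraries and 0 Ia libraries. By switch length it belonged to the beta-globin region chr7:111061107-111062016, held by 1 FS library and 4 PS libraries.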

How the data were processed

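Rad21 was profiled by chromatin immunoprecipitation with tagmentation in 8 libraries. Per the submitters' processing notes, the build was mm9 and the tools were MACS2 2.2.7.1, Bowtie2 2.4.4, deepTools 3.5.1 and SAMtools 1.15.1. Not given in the sources used here were the settings, peak threshold, control library and the treatment of reads matching several places. The last of these bears on near-identical receptor genes, and its part in the counts was not tested. The authors deposited 1 peak list per library. Per the file headers and columns of the deposited narrowPeak lists, each peak has a score, a fold (ratio) over the expected background at the summit, a −log10 p and a −log10 q, and a summit offset. These deposited values were ranked, filtered and tested only within a list, and folds of different libraries are printed side by side as a description. Depth is not recorded; the fold steps gave whole summit heights in fragments. No deposited per-sample column was left unassigned (0).

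Peaks overlapping by at least 1 bp were merged into regions, and the rest of a chromosome was the stretch from its first to its last peak without the windows. Each measure was compared within libraries by an exact two-sided sign-flip permutation test over 8 libraries, with Benjamini-Hochberg adjustment over 16 tests and a threshold of 0.05 (values of exactly 0.05 counted as passing), and genotypes by exact permutation of 4 against 4 (smallest p 0.0286) with adjustment over 8 tests. Presence was tested per region by Fisher's exact test over all 64772 regions. The named regions were up to 8 regions of all 8 libraries per cluster, the best ranked first, the strongest of 1 library in each cluster, beta-globin regions of at least 2 libraries, and the longest empty stretches; the other chromosome 2, 7 and 9 regions were named after their values were seen. The members and lists were chosen with earlier results of these data known. The alternatives were a −log10 q of at least 5, lists of equal length, trimmed windows, the beta-globin window counted in, flanks of 10000000 bp, summit-based counting or regions (± 100 bp), no added count, and each library left out. The scripts, tested on simulated data, used scipy 1.17.1, pandas 2.3.3, numpy 2.4.6 and matplotlib 3.10.9 under Python 3.11.15.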

Additional observations from a re-analysis of the deposited data

How the results depend on the processing

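The lower peak density of each cluster and of all 3 together kept its direction and its call in all 15 alternatives, with log2 ratios of -1.69 to -1.53 for all clusters, -4.10 to -2.79 on chromosome 2, -1.05 to -0.55 on chromosome 7 and -3.95 to -3.01 on chromosome 9, and adjusted p-values of 0.0156 to 0.05. The other measures moved more, and the cause was not tested. With peaks of −log10 q of at least 5, the log2 fold ratio of all clusters was -0.12, the width ratio -0.29 for all and -0.28 on chromosome 7 (calls lost), and the recurrence difference -10.5 points for all (call lost), 4.08 on chromosome 2 and -12.1 on chromosome 7 (call gained). The difference per 10000 peaks was 2.46 by orientation, 2.42 by orientation on chromosome 7 and -0.38 by switch length on chromosome 2. With lists of equal length, the fold ratio was -0.16 for all and -0.18 on chromosome 7 (calls gained, the first at exactly 0.05), the chromosome 9 width ratio -0.53 over the 5 libraries with a peak left (call lost), the recurrence difference -14.5 points on chromosome 7 (call gained) and -43.3 on chromosome 9, and the orientation difference 0.66 for all, 1.77 on chromosome 7 and 0 on chromosome 9, where that by switch length was 0 too. With windows trimmed at both ends, the fold ratio was -0.044 for all and the chromosome 9 width ratio -0.92 (call lost). Recurrence was -9.12 points on chromosome 7 (call gained), -40.3 on chromosome 2 and -33.6 on chromosome 9. Trimming removed the only chromosome 2 region of all 8 libraries. The share there was then 0 in every library and the sign was fixed, so no call is given for it. The chromosome 9 differences were -0.13 by orientation and 0.030 by switch length. With the beta-globin window counted in, the chromosome 7 fold ratio was 0.013, the width ratios -0.15 for all, -0.14 on chromosome 7 and -0.56 on chromosome 9 and recurrence -8.82 points for all (calls lost). With the rest limited to flanks the chromosome 7 fold ratio was 0.012. With regions from summits recurrence was -2.40 points for all (call lost) and 0.23 on chromosome 7. On the log2 density scale the chromosome 9 orientation difference was -0.087.

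Leaving out 1 library at a time, the fold ratio ranged from -0.046 to 0.047 for all and from -0.077 to 0.016 on chromosome 7. The width ratio ranged from -0.21 to -0.14 on chromosome 7 and from -0.66 to -0.48 on chromosome 9. Recurrence ranged from -10.1 to -5.41 points for all, from -12.4 to 8.71 on chromosome 2, from -8.30 to -2.78 on chromosome 7 and from -46.3 to 4.14 on chromosome 9. The orientation difference ranged from -3.39 to 0.14 for all, from -2.51 to 0.49 on chromosome 7 and from -0.056 to 0.24 on chromosome 9. That by switch length ranged from -0.99 to 2.47 for all, from -0.13 to 0.65 on chromosome 2 and from -0.61 to 2.04 on chromosome 7. No label says what a replicate number marks, although PS libraries of the same number also share a prefix of their peak names. With the replicate block, pairing libraries by number over 4 pairs, the difference stayed -1.48 by orientation (exact sign-flip permutation p = 0.375) and 0.75 by switch length (p = 0.375, exact permutation), where the smallest possible p is 0.125, and no call changed.

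The number of libraries and the low summits limit these comparisons. Chromosome 2 and 9 values rest on 1 to 6 peaks per library, so their median folds and widths and their recurrence shares move with single peaks. Fragments below a list's threshold are not recorded. The lists hold no signal between peaks, and an empty stretch says only that no peak was called there. Sequences and mm9 gene positions were not used here.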

Other observations

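Windows sparser than the receptor cluster were found elsewhere on chromosomes 7 and 9, but not on chromosome 2. On chromosome 7 the sparsest adjacent 5.9 Mb windows began at 44700000 (0.720 peaks per Mb and library, 15 regions, 0 of them in all 8 libraries), 56500000 (1.21) and 38800000 (1.31), all below the receptor cluster's 6.23. On chromosome 9 the windows that began at 10000000 (0.60) and 92500000 (0.95) were sparser than the receptor cluster's 1.05. On chromosome 2 the window that began at 95000000 was next above the receptor cluster, with 10 regions, 4 of which were held by all 8 libraries, against 7 and 1. The genes of these windows were not examined.

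Other receptor runs stand in the RefSeq order of the same chromosomes outside the runs described above. Chromosome 2 held 377 receptor genes and pseudogenes in all, chromosome 7 held 294 and chromosome 9 held 179. Peaks near the other runs, such as the 51 genes from Olfr24 to Olfr18 on chromosome 9, were not analysed here.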
